A study of Homo sapiens with 18 samples.

Results

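Iron-responsive mRNAs and the proteins that regulate them were followed at the level of RNA, of ribosome footprints and of the ratio of footprints to RNA. The 7 genes were chosen by name for their roles, with earlier results of these data known. They are the ferritin subunits FTH1 and FTL, the uptake genes TFRC and SLC11A2, the iron exporter SLC40A1, and the regulators ACO1 and IREB2. All 7 are among the 17017 gene symbols of the deposited table. The cells were MDA-MB-231, an established human line of triple-negative breast carcinoma, in which fibrillarin (FBL), the methyltransferase that modifies ribosomal RNA, was depleted by short hairpin RNA. The groups were SC, read as the scramble control, and the hairpins SH2 and SH3. The protocols number 2 hairpins, without a key that ties either number to SH2 or SH3. All groups, SC included, received lentivirus of the pLKO.1 type, were kept in puromycin at 1 µg/ml for 96 h and, after a change of medium, were given cycloheximide at 100 µg/ml for 5 min before lysis. Each treatment has 3 libraries of input cytoplasmic RNA (IN) and 3 of ribosome-protected fragments (RPF), 18 in all. Nothing states that replicates were separate cultures, so the p-values measure the spread between these samples, which may be technical.

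Cells match their ferritin and transferrin receptor to their iron supply mainly after transcription. When iron is scarce, the iron regulatory proteins IRP1 (made from ACO1) and IRP2 (made from IREB2) bind hairpins called iron-responsive elements. A bound element in the leader of the FTH1, FTL or SLC40A1 mRNA holds back its translation, while bound elements in the trailer of the TFRC mRNA, and of some SLC11A2 isoforms, protect the mRNA from decay. When iron is plentiful, IRP1 takes up an iron-sulfur cluster and becomes the cytosolic aconitase, and IRP2 is degraded through the ubiquitin ligase subunit FBXL5.

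The loop of such a hairpin is the feature by which the regulatory proteins know their targets, and in FTL it lies close to the start of the mRNA. It is shown here for FTL, the only gene with a start region at hand whose first 50 bases held the motif given below. The stretch is taken from RefSeq, build GRCh38.p14, at chr19:48965329-48965358 on the plus strand. The capitals mark the loop motif CAGTGN, in which N is any base, and its first base is base 39 after the annotated start.
FTL: gtctgtctcttgcttcaaCAGTGTttggac
A longer motif, CNNNNNCAGTGN, adds the unpaired C of the hairpin with 5 bases between it and the loop, and every match to it contains a match to the shorter motif. RefSeq start regions were held for 6 of the 7 genes, in 10 windows, and FTH1 had no entry. In the first 50 bases, FTL had 1 match to each motif on the transcript strand. The windows of TFRC, SLC40A1, SLC11A2, ACO1 and IREB2 had none in that stretch on either strand. Over 35116 start regions of the same length, CAGTGN stood in 6.36% on the transcript strand and 6.03% on the other. The longer motif stood in 1.67% and 1.66%. A match is a description of letters, and its absence says only that they are not in this window.

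IN libraries held 23469830 to 27629488 counts and RPF libraries 1662705 to 6098648, so footprint values rest on fewer counts. Levels are given in CPM, counts scaled to the size of the library, within its kind. FBL, the targeted gene, was at 349 to 421 CPM of RNA in SC, 1.26 to 11.2 in SH2 and 2.95 to 4.15 in SH3. Its footprints were at 269 to 296 CPM in SC, 4.43 to 30.1 in SH2 and 4.10 to 8.06 in SH3, with SH2 replicate 3 highest among the hairpin libraries in both kinds. A list of 6 genes of mesenchymal and basal breast carcinoma (VIM, CD44, AXL, SPARC, KRT18 and CAV1) summed to 6547 to 9481 CPM in IN with none at 0. VIM alone was at 4081 to 7223 CPM, and SPARC was at 0.23 to 0.70 CPM, near 0 in all groups. Another 6 genes of luminal breast cells summed to 96.2 to 119 CPM in IN. Most of this was ERBB2, with group means of 83.4 to 95.3 CPM in IN. Group means of EPCAM and GATA3 ran from 5.66 to 11.2 CPM, and those of ESR1, PGR and CDH1 from 0 to 0.34. A further 5 leukocyte and endothelial markers summed to 1.42 to 4.78 CPM. Replicates varied by 11.6% (IN) and 15.1% (RPF), as the biological coefficient of variation that edgeR estimates. In bulk samples, fewer cells that make an RNA and less of it per cell cannot be told apart.

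The ferritin mRNAs carried few footprints for their abundance already in the scramble control. The ratio of footprint CPM to RNA CPM was computed from the group means on the log scale, and its range over all 9 pairings of an RPF with an IN library is given. The length of a gene cancels in it only if both kinds of library were counted over the same part of the gene, which is not stated. In SC the ratio was 0.0653 for FTL (0.0374 to 0.0989) and 0.172 for FTH1 (0.123 to 0.265). On the log2 scale these were -3.94 ± 0.53 and -2.54 ± 0.40 (SD, n = 3), against a median of -0.19 over 10319 genes. This SD is over ratios of IN and RPF libraries paired by replicate number. Lower ratios were found for 0.174% of these genes in the case of FTL and 2.48% in the case of FTH1. The ratio of SLC40A1 was also low, at 0.185 (0.106 to 0.407), but rested on 3 footprint counts in each SC library.

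The other members lay nearer to, or above, the middle of all genes. IREB2 stood at -0.56 ± 0.13 (log2 ratio in SC, SD, n = 3), with 35.7% of genes under it. SLC11A2 stood at 0.37 ± 0.16, ACO1 at 0.62 ± 0.022 and TFRC at 0.89 ± 0.40, with 73.7%, 82.8% and 90.6% of genes under them. These SDs rest on pairing by replicate number, which has no stated meaning. Without pairing, the SE of the log2 ratio was 0.132 for SLC11A2, 0.0486 for ACO1 and 0.196 for TFRC. FTL thus stood near the low end of the range and TFRC in its upper part, with SDs far smaller than the distance between them.

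**Figure D1:**
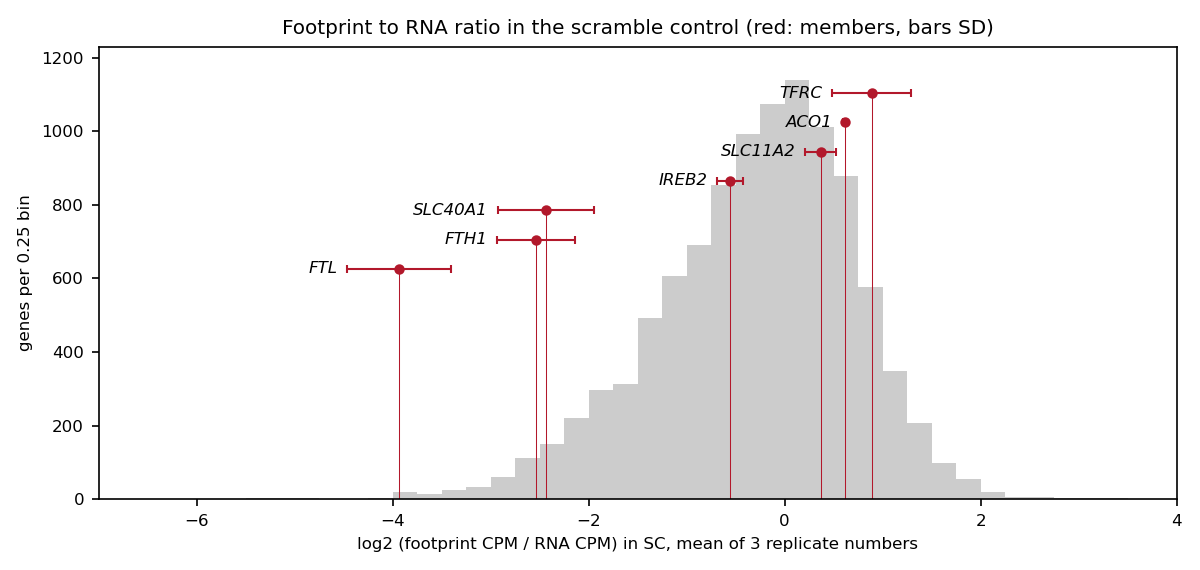
Histogram of the log2 ratio of footprint CPM to RNA CPM in the scramble control (x axis) as genes per bin (y axis), with the members as red points and bars of 1 SD over 3 replicate numbers. FTL at -3.94 and FTH1 at -2.54 lie in the left tail, and TFRC at 0.89 lies in the upper part of the distribution.

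Both ferritin subunits had less RNA in each hairpin group. FTH1 encodes the heavy chain, the ferroxidase that oxidises iron for storage. Its RNA was at 1419.6, 1205 and 1343 CPM in SC, 653, 602 and 611 in SH2, and 940.5, 920.3 and 960.4 in SH3. The 3 groups did not overlap, with SC highest and SH2 lowest. FTH1 RNA fell by 1.09 ± 0.0923 (log2, SE) in SH2 (edgeR adjusted p = 4.16e-07) and by 0.49 ± 0.0915 in SH3 (edgeR adjusted p = 5.00e-04). Both calls held in all 14 alternatives. The hairpins share the SC libraries, so their changes are not independent of each other. The direct difference, SH2 minus SH3, was -0.60 ± 0.0916 (edgeR adjusted p = 2.09e-04).

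FTH1 footprints did not follow the RNA in the same way in both hairpins. They were at 319, 209 and 174 CPM in SC, 173, 156 and 135 in SH2, and 312, 332 and 284 in SH3. SC replicate 1 was as high as the SH3 libraries, the other SC libraries were lower than all of them, and all SH2 libraries were below SC and SH3. FTH1 footprints fell by 0.60 ± 0.187 in SH2 (edgeR adjusted p = 0.0158), and were 0.40 ± 0.186 higher in SH3, which did not pass the test (edgeR adjusted p = 0.105). Without SC replicate 1 the SH2 difference was -0.30 (edgeR adjusted p = 0.117) and its call was lost. The difference in SH3 was then 0.71 and passed (edgeR adjusted p = 0.00143). The SH3 difference also passed with no filter on low counts (edgeR adjusted p = 0.0439), and with the replicate number as a term in the fit. The SH2 call was also lost without SH2 replicate 3, at -0.50 (edgeR adjusted p = 0.0791). Without SC replicate 3 the SH3 difference was 0.23 (edgeR adjusted p = 0.379), the highest adjusted p of its alternatives. The SH2 minus SH3 difference of -1.0 ± 0.189 (edgeR adjusted p = 0.00135) held in all 15 alternatives.

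FTL encodes the light chain, which helps the iron core to form. FTL RNA was at 2546, 1551 and 1932 CPM in SC, 1141, 1037 and 1125 in SH2, and 1504, 1641 and 1460.3 in SH3. SH2 lay below both other groups, while SH3 overlapped SC. FTL RNA fell by 0.87 ± 0.143 in SH2 (edgeR adjusted p = 1.34e-04) and by 0.39 ± 0.142 in SH3 (edgeR adjusted p = 0.0332), and the SH2 minus SH3 difference was -0.48 ± 0.142 (edgeR adjusted p = 0.0164). The SH3 call was lost without SC replicate 1, at -0.20 (edgeR adjusted p = 0.156), and also without SC replicate 3, SH3 replicate 1 or SH3 replicate 3, at -0.42, -0.42 and -0.39 (edgeR adjusted p = 0.0501, 0.0562 and 0.0793). The difference between hairpins was lost without SH2 replicate 2, SH2 replicate 3 or SH3 replicate 2, at -0.41, -0.48 and -0.41 (edgeR adjusted p = 0.0727, 0.0524 and 0.0714).

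FTL footprints were at 146, 153 and 95.2 CPM in SC, 107, 144 and 121 in SH2, and 180.3, 189 and 146 in SH3. The SC range took in all SH2 libraries, and SH3 ran from within it to above it. No footprint change passed the test: it was -0.073 ± 0.181 in SH2 (edgeR adjusted p = 0.769, 95% interval -0.46 to 0.31) and 0.39 ± 0.181 in SH3 (edgeR adjusted p = 0.104). Without SC replicate 2 the SH3 difference was 0.51 and passed (edgeR adjusted p = 0.0394), and without SC replicate 3 it was 0.21 (edgeR adjusted p = 0.391). The SH3 difference also passed with the replicate number as a term in the fit (edgeR adjusted p = 0.0366). SH2 minus SH3 was -0.46 ± 0.182 (edgeR adjusted p = 0.0758), and passed in 6 of 15 alternatives, including those without any 1 of the SC replicates (-0.47 in each, edgeR adjusted p from 0.0416 to 0.0464). FTH1 and FTL have many processed pseudogene copies in the human genome. How reads shared with such copies were counted is not stated, so both sets of values carry that uncertainty.

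TFRC, the receptor that brings transferrin-bound iron into the cell, had less RNA and fewer footprints in both hairpins. TFRC RNA was at 401, 364 and 372 CPM in SC, 277, 240.0 and 225 in SH2, and 219, 203 and 194 in SH3. Its footprints were at 551, 871 and 717 CPM in SC, 409.9, 535 and 412 in SH2, and 329, 274 and 249 in SH3. In both measures the 3 groups did not overlap, with SC highest and SH3 lowest. TFRC RNA fell by 0.61 ± 0.0991 in SH2 (edgeR adjusted p = 1.12e-04) and by 0.88 ± 0.0996 in SH3 (edgeR adjusted p = 8.85e-06). TFRC footprints fell by 0.65 ± 0.172 in SH2 (edgeR adjusted p = 0.00580) and by 1.33 ± 0.175 in SH3 (edgeR adjusted p = 4.66e-05). These 4 calls held in every alternative run.

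The order of the hairpins was the opposite of that for ferritin RNA. SH2 minus SH3 was 0.27 ± 0.0990 for TFRC RNA (edgeR adjusted p = 0.0449) and 0.68 ± 0.174 for its footprints (edgeR adjusted p = 0.0102). The RNA difference passed in 8 of 14 alternatives. It was lost with no filter on low counts and without SC replicate 2, SC replicate 3, SH2 replicate 1, SH3 replicate 2 or SH3 replicate 3, with values from 0.18 to 0.28 and edgeR adjusted p up to 0.201. The footprint difference was lost without SH2 replicate 2, at 0.54 (edgeR adjusted p = 0.0592), and without SH3 replicate 3, at 0.59 (edgeR adjusted p = 0.0544).

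SLC11A2 encodes the divalent metal transporter that moves iron out of endosomes. Its RNA was at 28.4, 31.2 and 29.5 CPM in SC, 31.7, 30.4 and 26.6 in SH2, and 24.4, 23.0 and 21.3 in SH3. SH3 lay below both other groups, which overlapped. SLC11A2 RNA fell by 0.38 ± 0.107 in SH3 (edgeR adjusted p = 0.00880), a call that held in all 14 alternatives, and differed by -0.0077 ± 0.106 in SH2 (edgeR adjusted p = 0.955, 95% interval -0.23 to 0.22). The hairpins differed by 0.37 ± 0.107, SH2 minus SH3 (edgeR adjusted p = 0.0141). That difference was lost without SH2 replicate 1, at 0.32 (edgeR adjusted p = 0.0568), and without SH3 replicate 3, at 0.33 (edgeR adjusted p = 0.0633).

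SLC11A2 footprints were at 32.3, 43.0 and 40.7 CPM in SC, 43.3, 55.01 and 46.0 in SH2, and 29.3, 24.3 and 27.7 in SH3. The 3 groups did not overlap, with SH2 highest and SH3 lowest. Footprints fell by 0.51 ± 0.181 in SH3 (edgeR adjusted p = 0.0376) and were 0.33 ± 0.169 higher in SH2 without passing the test (edgeR adjusted p = 0.119). The SH3 call was lost in 9 of 15 alternatives, 6 of which left out 1 library: SC replicate 2 or 3, SH2 replicate 3, or any SH3 replicate (-0.55 to -0.43, edgeR adjusted p up to 0.156). With all RPF libraries thinned to the same total it was -0.28 (edgeR adjusted p = 0.280). The SH2 minus SH3 difference of 0.84 ± 0.181 (edgeR adjusted p = 0.00336) held in all 15 alternatives.

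SLC40A1, or ferroportin, is the exporter of iron from cells and was the least abundant member. Its RNA was at 3.10, 4.62 and 3.62 CPM in SC, 4.63, 5.46 and 5.76 in SH2, and 4.44, 3.44 and 4.14 in SH3. SH2 lay just above SC, and SH3 overlapped SC. SLC40A1 RNA rose by 0.48 ± 0.189 in SH2 (edgeR adjusted p = 0.0385) and differed by 0.086 ± 0.193 in SH3 (edgeR adjusted p = 0.729). The SH2 call was lost in 7 of 14 alternatives, among them leaving out SC replicate 1 or 3, SH2 replicate 2 or 3, or SH3 replicate 3 (0.34 to 0.47, edgeR adjusted p up to 0.156). Footprints of SLC40A1 did not pass the filter on low counts. They numbered 3, 3 and 3 counts in SC, 2, 10 and 9 in SH2, and 2, 7 and 4 in SH3. The SC libraries are at the floor of 3 counts used here, and a difference was not detectable at this depth.

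ACO1, the gene of IRP1 and the cytosolic aconitase, was lower in SH2 in RNA and footprints. Its RNA was at 154, 159.97 and 165 CPM in SC, 112, 125 and 108 in SH2, and 145, 137 and 141 in SH3. SC lay above SH3, and SH3 above SH2, with no overlap. ACO1 RNA fell by 0.47 ± 0.0872 in SH2 (edgeR adjusted p = 3.69e-04), and in SH3 the difference of -0.18 ± 0.0870 did not pass the test (edgeR adjusted p = 0.0996). SH2 minus SH3 was -0.29 ± 0.0872 (edgeR adjusted p = 0.0176). The difference between hairpins was lost without SH2 replicate 1 or 3 or SH3 replicate 1 or 3, with values from -0.27 to -0.23 and edgeR adjusted p up to 0.0796. In SH3 the comparison with SC passed in 4 of 14 alternatives, including those without SH2 replicate 2 and without SH2 replicate 3 (-0.21 in each, edgeR adjusted p = 0.0302 and 0.0384).

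ACO1 footprints were at 232, 248 and 254 CPM in SC, 174, 179.96 and 170.3 in SH2, and 201, 186 and 188 in SH3. The groups again did not overlap, with SH2 lowest. Footprints fell by 0.48 ± 0.120 in SH2 (edgeR adjusted p = 0.00406), in all 15 alternatives, and by 0.35 ± 0.121 in SH3 (edgeR adjusted p = 0.0318). The SH3 call was lost in 7 alternatives, 5 of which left out SC replicate 2 or 3 or any SH3 replicate (-0.37 to -0.31, edgeR adjusted p up to 0.120). SH2 minus SH3 was -0.13 ± 0.122 (edgeR adjusted p = 0.466).

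IREB2, the gene of IRP2, changed in neither measure by the test against SC. Its RNA was at 92.6, 94.0 and 103 CPM in SC, 79.9, 87.1 and 80.7 in SH2, and 87.3, 82.2 and 102 in SH3. Its footprints were at 59.1, 70.8 and 67.3 CPM in SC, 78.5, 82.5 and 79.97 in SH2, and 63.2, 69.8 and 70.1 in SH3. SH2 lay below SC in RNA and above it in footprints, while SH3 overlapped SC in both. The SH2 differences were -0.23 ± 0.0996 in RNA (edgeR adjusted p = 0.0630) and 0.30 ± 0.135 in footprints (edgeR adjusted p = 0.0853). The RNA difference passed in 7 of 14 alternatives, 4 of which left out SC replicate 1, SH2 replicate 2, SH3 replicate 2 or SH3 replicate 3 (-0.27 to -0.24, lowest edgeR adjusted p = 0.0408). In SH3 they were -0.095 ± 0.0995 (edgeR adjusted p = 0.445) and 0.053 ± 0.138 (edgeR adjusted p = 0.791).

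**Figure D2:**
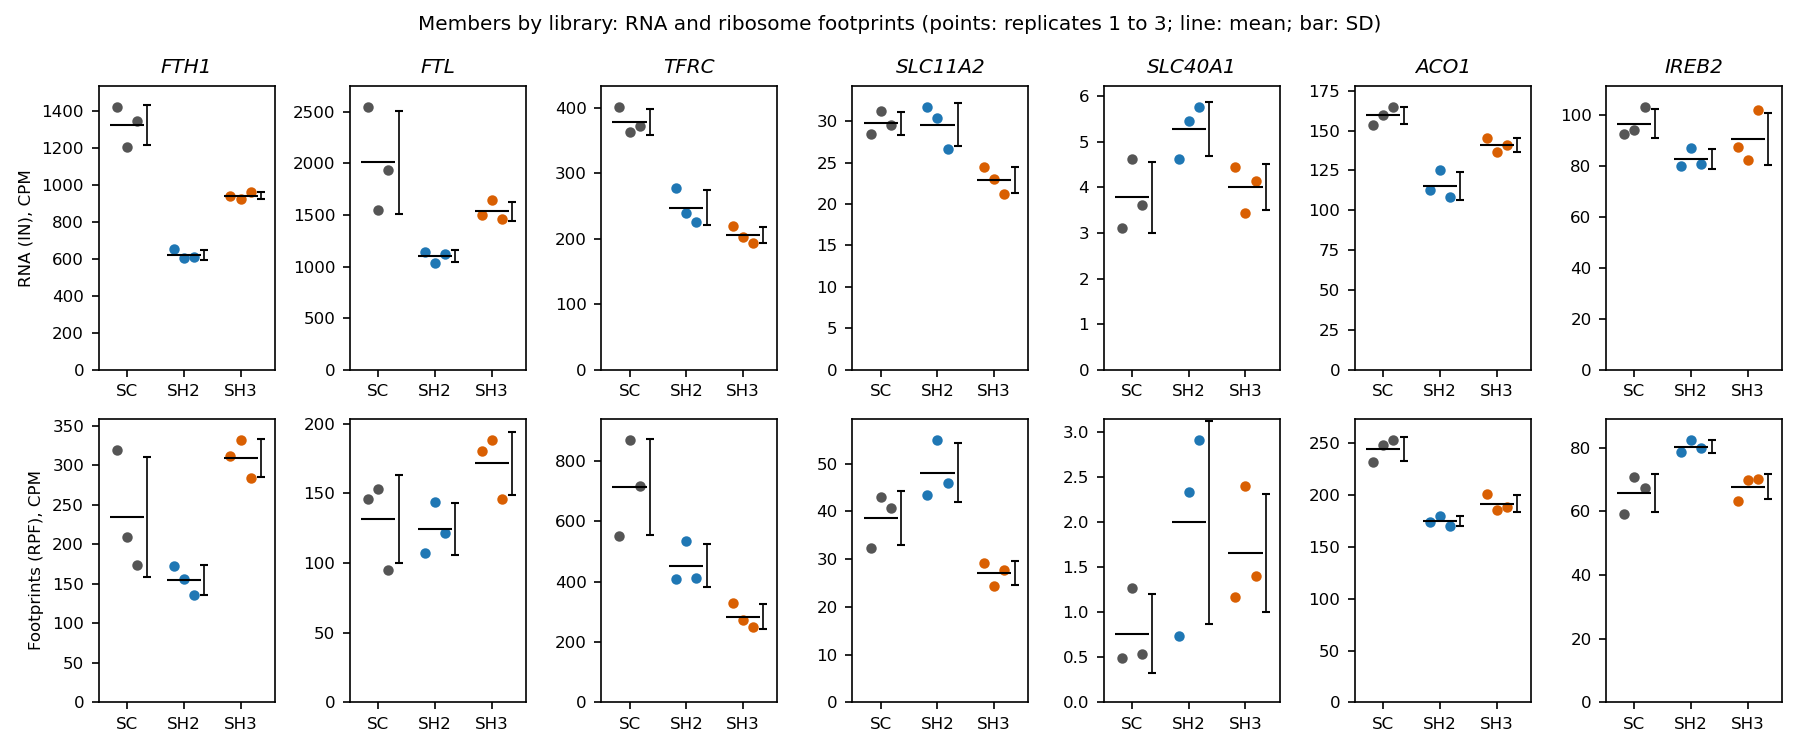
CPM of each member (columns) in RNA (upper panels) and footprints (lower panels) for SC, SH2 and SH3 on axes that start at 0, with a point per library, a line at the mean and a bar of 1 SD (n = 3). TFRC is highest in SC and lowest in SH3 in both panels, FTH1 footprints are lowest in SH2, and SLC40A1 is near 0 in footprints.

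Counted together, RNA changes among the members have to be read against a background in which much of the transcriptome was called. In SH2, 5 of the 7 were called in RNA, 4 lower and 1 higher. Of 12710 tested genes, 61.4% were called, 30.4% lower and 31.1% higher. In SH3, 4 were called lower and 0 higher by edgeR, the same number as had an unadjusted p under 0.05, while 53.0% of genes were called, 25.2% lower and 27.8% higher. The median log2 change of the members was -0.47 in SH2 and -0.38 in SH3, beside 0.012 and 0.034 over all genes tested. Between the hairpins, 3 members were lower and 2 higher in SH2 than in SH3, where 39.3% of genes were called, 20.4% lower and 18.9% higher.

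Of the 6 members tested in footprints, 3 were called lower and 0 higher in each hairpin by edgeR. For SH2, 44.2% of 10345 genes were called, 23.2% lower and 21.0% higher, and for SH3 35.9%, 19.0% lower and 16.9% higher. At an unadjusted p under 0.05, 4 members differed in SH2 and 5 in SH3. The shares above are at the adjusted threshold, and that of all genes at the unadjusted one is not given here. The same 2 members, TFRC and ACO1, were called lower in both hairpins, with FTH1 added in SH2 and SLC11A2 in SH3. Of all 10345 genes, 1245 were called lower in both, from fits that share the SC libraries. The medians were -0.28 and -0.15, beside -0.0042 and -0.014 over all genes. SH2 minus SH3 was called higher for 2 members and lower for 1, where 23.8% of genes were called, 12.1% higher and 11.6% lower.

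**Figure D3:**
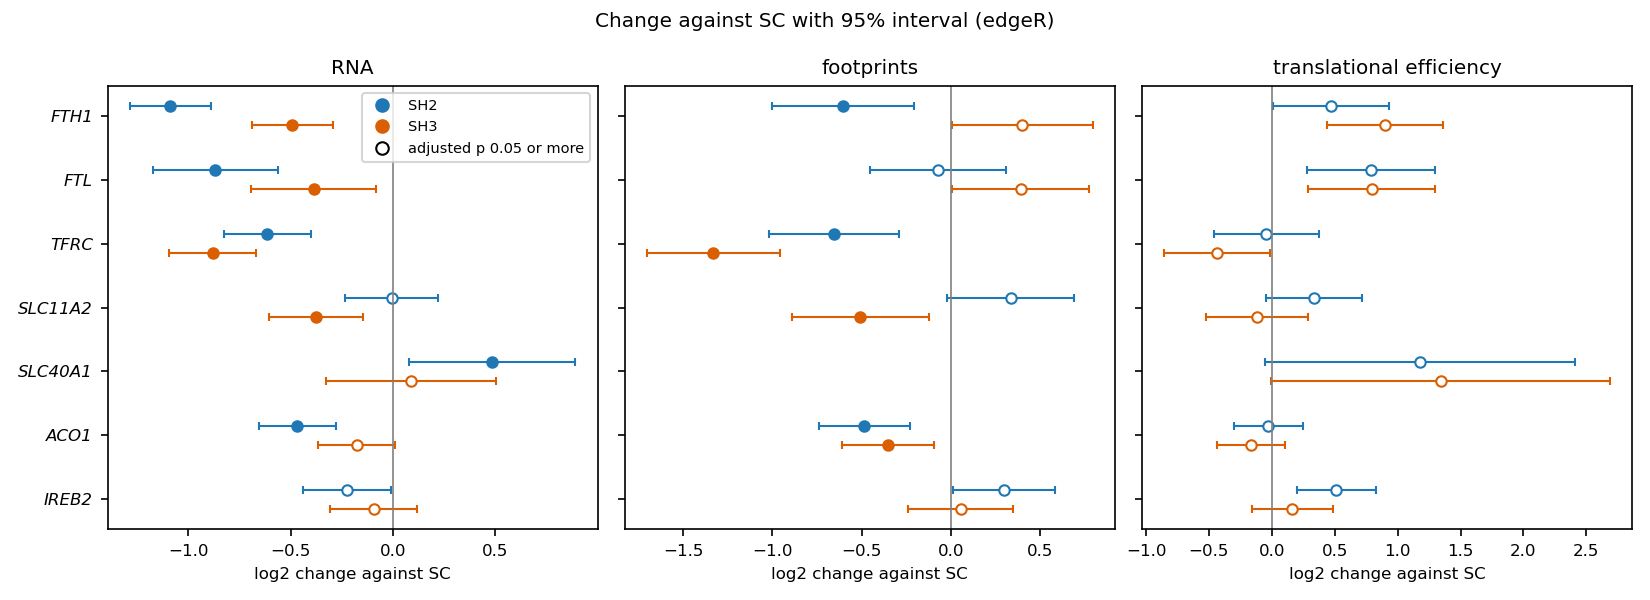
Log2 change of each member against SC (x axis) with its 95% interval from edgeR, for SH2 and SH3, in RNA, footprints and translational efficiency. Intervals of FTH1, FTL and TFRC lie below 0 in RNA in both hairpins, and in translational efficiency the values of FTH1 and FTL lie above 0.

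Translational efficiency, the footprint change less the RNA change, answers whether a change in footprints goes beyond that in RNA. Since each library is scaled to its own size, this and the changes above are relative to other genes. A shift shared by most genes would not show. No member passed the edgeR test against SC, where 3.90% of 12531 genes were called in SH2 and 0.686% in SH3. At an unadjusted p under 0.05 there were 3 members in each hairpin, a threshold at which the share of all genes is not given here. DESeq2's Wald test called 2 members in SH2 and 1 in SH3, where it called 930 of 10748 and 383 of 8769 genes. The median over the 7 was 0.47 in SH2 and 0.16 in SH3, beside -0.019 and -0.044 over all genes. It takes in SLC40A1, at 1.18 and 1.34 on 2 to 10 footprint counts per library. In SH3 the values of TFRC, ACO1 and SLC11A2 were below 0, and in SH2 those of TFRC and ACO1. SH2 minus SH3 was called by edgeR for no member and for 0.0160% of genes, with 2 members at an unadjusted p under 0.05. DESeq2 called 0 members there and 254 of 8769 genes.

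For the ferritin subunits no efficiency difference passed the edgeR test, and all 4 estimates were above 0. The footprint to RNA ratio of FTH1 was 0.172 in SC, 0.248 in SH2 (0.207 to 0.287 over the 9 pairings) and 0.328 in SH3 (0.296 to 0.361). The SH3 range lay above the SC range, and that of SH2 overlapped it. The efficiency difference of FTH1 was 0.47 ± 0.222 in SH2 (edgeR adjusted p = 0.269) and 0.90 ± 0.221 in SH3 (edgeR adjusted p = 0.0630). Without SC replicate 1, whose footprints were the highest of SC, the differences were larger and passed, at 0.74 (edgeR adjusted p = 0.0193) and 1.16 (edgeR adjusted p = 0.00150). Over all alternatives the adjusted p ran up to 0.612 in SH2 and 0.393 in SH3. In SH3 it also passed with DESeq2 (adjusted p = 0.00662) and with no filter on low counts in edgeR (adjusted p = 0.0133).

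The ratio of FTL was 0.0653 in SC, 0.112 in SH2 (0.0938 to 0.139) and 0.111 in SH3 (0.0891 to 0.129), and both hairpin ranges overlapped that of SC. Its efficiency difference was 0.79 ± 0.243 in SH2 (edgeR adjusted p = 0.0733) and 0.79 ± 0.243 in SH3 (edgeR adjusted p = 0.140). Without SC replicate 2 the differences were 1.04 (edgeR adjusted p = 0.0170) and 1.05 (edgeR adjusted p = 0.0482). In SH2 it also passed with DESeq2 (adjusted p = 0.0386) and with no filter in edgeR (adjusted p = 0.0228), and over all alternatives the adjusted p ran up to 0.244 in SH2 and 0.512 in SH3. Even with these shifts, the FTL ratio stayed under the ratio of each of the 6 other members in SH2 and SH3.

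IREB2 had a ratio of 0.679 in SC (0.573 to 0.764), 0.973 in SH2 (0.901 to 1.03) and 0.751 in SH3 (0.621 to 0.853). The SH2 range lay above that of SC, and the SH3 range overlapped it. The efficiency difference was 0.51 ± 0.152 in SH2 (edgeR adjusted p = 0.0586) and 0.16 ± 0.154 in SH3 (edgeR adjusted p = 0.724). With DESeq2 the SH2 value passed (0.52, adjusted p = 0.0114), and over the alternatives its adjusted p ran up to 0.193.

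The remaining members gave smaller or less certain differences in efficiency. For TFRC the difference was -0.044 ± 0.202 in SH2 (edgeR adjusted p = 0.947, 95% interval -0.46 to 0.37) and -0.43 ± 0.203 in SH3 (edgeR adjusted p = 0.380, 95% interval -0.86 to -0.011). ACO1 gave -0.027 ± 0.130 in SH2 (95% interval -0.30 to 0.24) and -0.16 ± 0.131 in SH3 (95% interval -0.43 to 0.11). SLC11A2 gave 0.34 ± 0.183 in SH2 (edgeR adjusted p = 0.347) and -0.12 ± 0.194 in SH3 (edgeR adjusted p = 0.859). SLC40A1, tested only because its RNA passed the filter, gave 1.18 ± 0.593 in SH2 and 1.34 ± 0.648 in SH3 on 2 to 10 footprint counts per library (edgeR adjusted p = 0.301 and 0.399). With thinned RPF libraries these were 0.24 and 0.45 (edgeR adjusted p = 0.929 and 0.874), and the SH3 value was 0.83 without SH3 replicate 2 (edgeR adjusted p = 0.845).

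The authors' deposited table has columns for a measure named RD, which is not defined in the sources used here. In the authors' deposited table the RD columns of SH2 and SH3 held identical log2 and p values for all 17017 genes. Their log2 values were within 0.05 of a DESeq2 interaction term for SH3 in 100% of genes, and within 0.05 of that for SH2 in 7.80%. Their p-values matched, in 100% of genes within 0.05 on the log10 scale, a DESeq2 likelihood ratio test of both hairpins at once. In the authors' deposited table, FTH1, FTL and IREB2 had RD adjusted p-values of 0.0102, 0.0316 and 0.0252, where 10.5% of genes with a value were under 0.05. The RD log2 value there for IREB2 is 0.17, near the 0.16 found here for SH3 and below the 0.51 found for SH2. A joint edgeR test of both hairpins, added after the data had been seen, gave adjusted p = 0.0615 for FTH1, 0.0854 for FTL and 0.119 for IREB2, and called 2.94% of genes.

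By pattern over all 18 libraries, each kind centred on its own mean, the genes most like FTH1 among 10334 were DCUN1D5 (r = 0.92), ZNF573 (r = 0.91) and NFATC3 (r = 0.91). Those most like FTL were FTH1 (r = 0.83), RPS25 (r = 0.81) and NFATC3 (r = 0.81). TFRC was most like SLC29A1 (r = 0.98), PGM2 (r = 0.97) and MSMO1 (r = 0.97), the last an enzyme of cholesterol synthesis. These Pearson r values describe libraries that share treatments, depth and scaling, and carry no test.

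Beyond the members, lists of iron genes were read from the same fits. Of 66 genes, 64 were found, FTMT and HEPH were not analysed here, and 60 were tested in RNA. The RNA of 13 was called higher in SH2 and that of 16 lower, where all genes gave 31.1% and 30.4%. The SH3 numbers were 14 and 11, where all genes gave 27.8% and 25.2%. In footprints, of 57 tested, SH2 had 8 called higher and 16 lower, beside 21.0% and 23.2% of all genes, and SH3 had 3 and 11, beside 16.9% and 19.0%. The counts for single lists below stand against the same shares. Both hairpins called 8 of the 60 higher and 8 lower in RNA, where 2496 and 2319 of all 12710 genes tested were called so. The lists' median RNA change was -0.077 in SH2 and 0.012 in SH3, beside 0.012 and 0.034 over all genes. For efficiency SH2 had 0 called higher and 3 lower, and SH3 had 0 called at all, where 3.90% and 0.686% of all genes were called.

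Among 8 tested genes of uptake, reduction and release, SH2 RNA had 2 called higher and 3 lower, and SH3 RNA 1 and 4. STEAP3, the endosomal ferrireductase that works beside the transferrin receptor, rose in RNA by 0.70 ± 0.146 in SH2 and 1.09 ± 0.146 in SH3 (edgeR adjusted p = 8.68e-04 and 3.71e-05). It rose in footprints too, by 0.66 and 0.80 (edgeR adjusted p = 0.00554 and 0.00237), while TFRC fell. CYBRD1, a ferric reductase of the plasma membrane, fell in RNA by 1.21 ± 0.133 and 0.77 ± 0.131 (edgeR adjusted p = 3.59e-06 and 2.53e-04), and in footprints by 0.90 and 0.82. SLC39A8, a metal importer, fell in RNA by 0.49 and 0.83 and in footprints by 0.63 and 1.37. STEAP2, a related reductase, fell in RNA by 0.59 and 1.42, and MELTF, which encodes melanotransferrin, fell in footprints by 0.51 and 1.19.

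The storage list held 3 genes, of which 1 was called, lower in SH2 RNA and footprints. This is NCOA4, the receptor that takes ferritin to autophagy, named here after its values were seen. Its RNA fell by 0.95 ± 0.100 in SH2 (edgeR adjusted p = 2.66e-06) and differed by 0.14 ± 0.0989 in SH3 (edgeR adjusted p = 0.243), with an SH2 minus SH3 difference of -1.09 (edgeR adjusted p = 2.98e-06). Of 5 genes that control IRP2 stability, SH2 RNA had 1 called higher and 1 lower, and SH3 RNA 0 and 2. SKP1, a subunit of the ligase that FBXL5 directs, fell in RNA by 0.83 and 0.26 (edgeR adjusted p = 7.94e-06 and 0.0376). FBXL5 itself, also named after its values were seen, rose in SH2 by 0.26 ± 0.108 in RNA (edgeR adjusted p = 0.0468) and by 0.62 ± 0.133 in footprints (edgeR adjusted p = 0.00135). In SH3, 0 of these 5 genes were called higher in RNA or in footprints. The SH3 means of FBXL5 were 86.6 CPM in RNA and 71.1 in footprints, against 83.9 and 65.1 in SC.

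Of 18 genes of mitochondrial iron and iron-sulfur cluster assembly, SH2 RNA had 3 called higher and 6 lower, and SH3 RNA 3 and 3. The scaffold ISCU rose by 0.94 and 0.82 and the sulfur donor NFS1 by 0.56 and 0.57. The late factors NFU1 and BOLA3 fell in RNA by 0.50 and 0.36, and by 0.47 and 0.85. In footprints BOLA3 fell by 1.15 in SH2 and fell by 1.74 in SH3.

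In cytosolic iron-sulfur cluster assembly, 4 of 10 genes were called higher in SH2 RNA and 5 in SH3, with 1 lower in each, and all genes gave 31.1% and 27.8% higher. In footprints 0 of the 10 were called higher and 1 lower in each hairpin. CIAO1, CIAO3, CIAPIN1 and NDOR1 rose in RNA in both hairpins by 0.27 to 0.56. Their footprint differences, none called, ran from -0.33 (CIAPIN1) to 0.16 (CIAO3) in SH2 and from -0.15 (CIAPIN1) to 0.40 (CIAO3) in SH3. GLRX3, a cytosolic glutaredoxin, fell by 0.38 and 1.32 in RNA and by 0.76 and 1.85 in footprints, and the hairpins differed in RNA by 0.95, SH2 minus SH3 (edgeR adjusted p = 6.59e-06). Among 12 genes of heme synthesis, export and breakdown, SH2 RNA had 3 called higher and 3 lower, and SH3 RNA 4 and 0. The heme enzyme CPOX rose in RNA by 1.33 and 0.55, and UROS fell in footprints by 1.16 and 0.72.

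**Figure D4:**
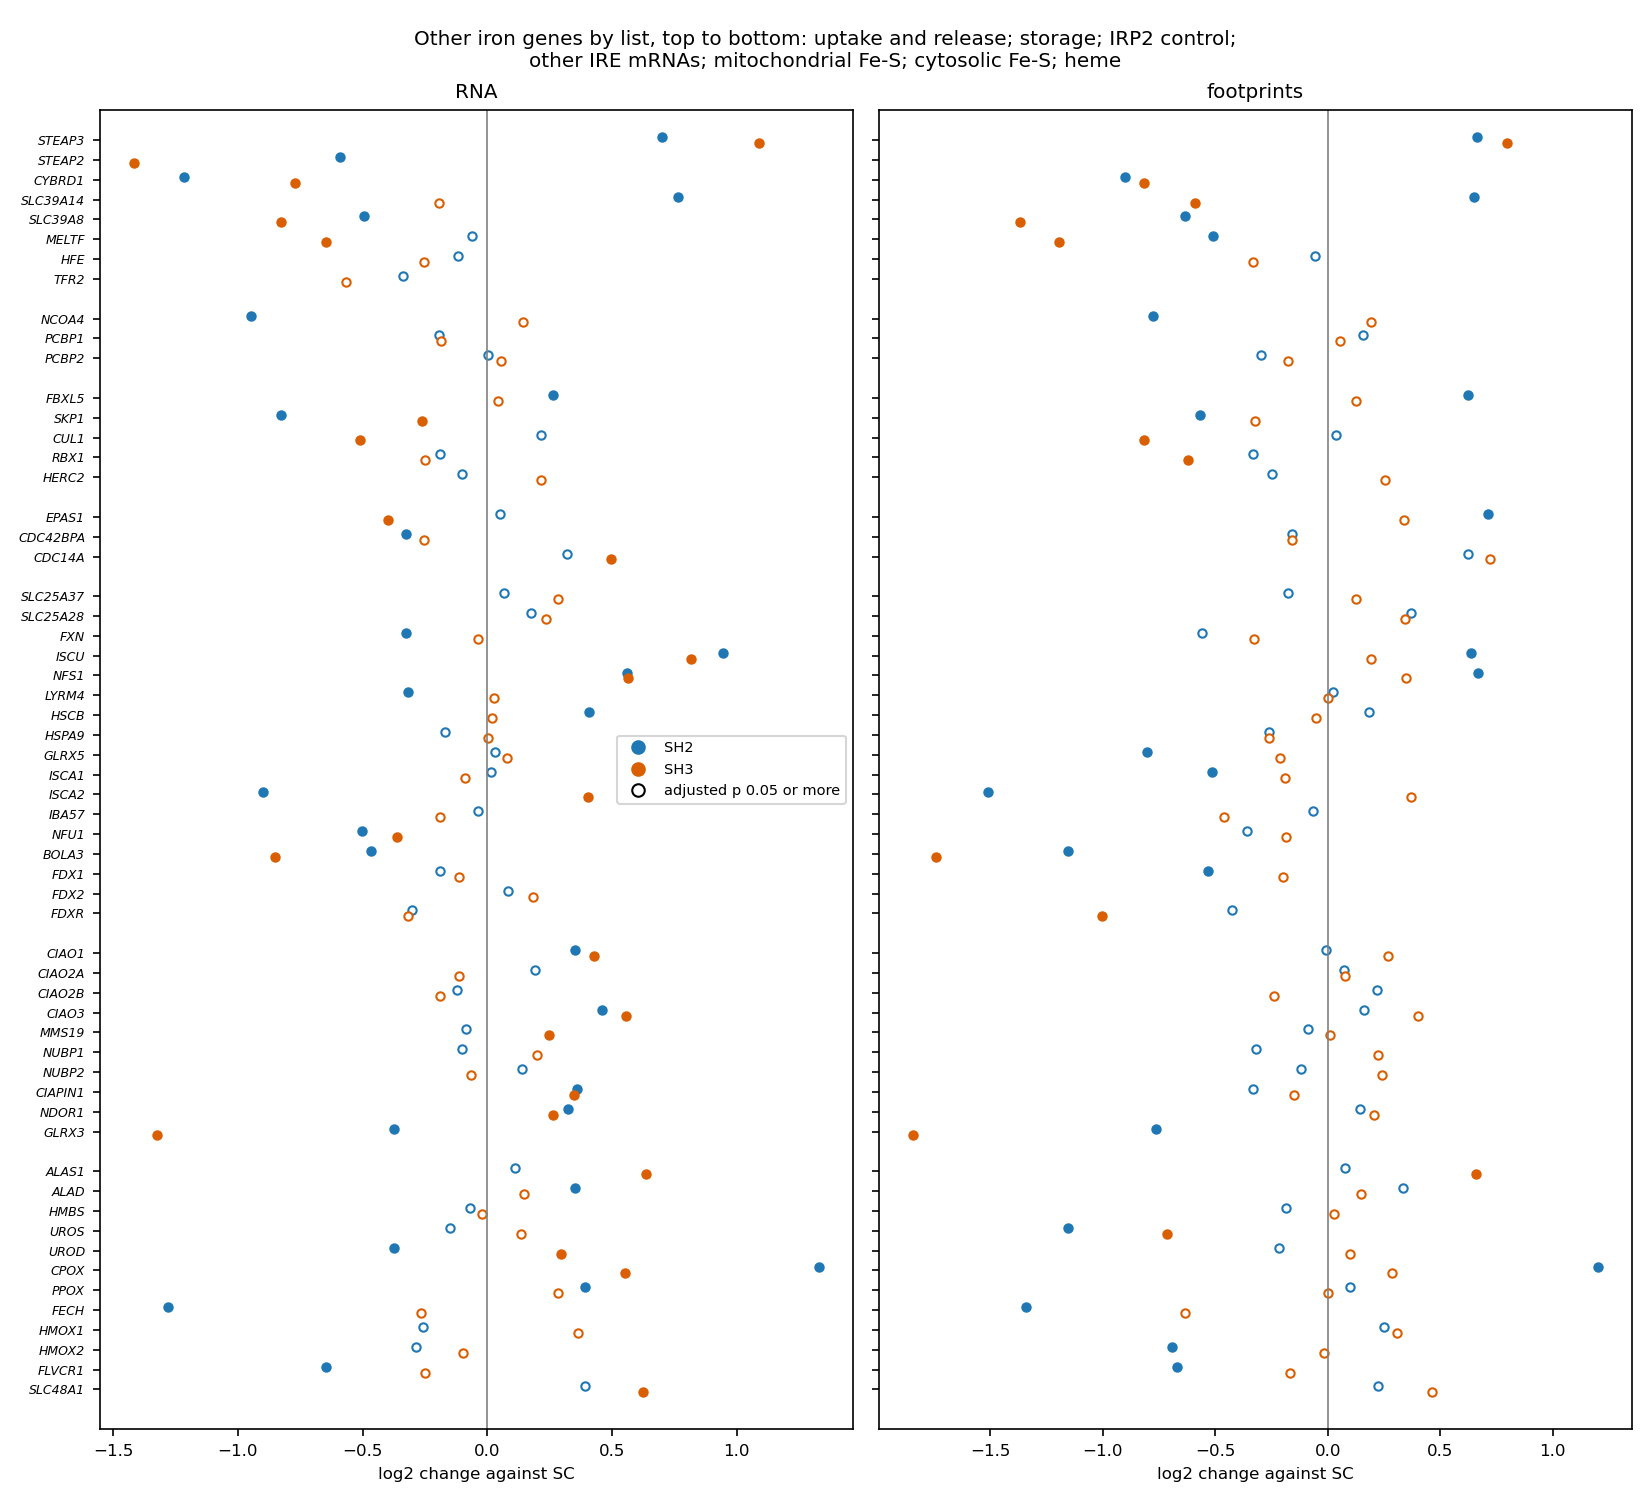
Log2 change against SC (x axis) of other iron genes, in rows grouped by list, for SH2 and SH3 in RNA and footprints; filled points are called by edgeR. STEAP3 and ISCU lie to the right of 0 in RNA in both hairpins, and CYBRD1 and GLRX3 lie to the left.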

How the data were processed

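Reads were counted per gene in 18 libraries, and a single table of 17017 symbols was used. The count columns hold whole-number read counts as deposited. Columns of normalized signal come from DESeq2, per the file headers, and each value equals the deposited count divided by 1 factor per library. The log2 fold changes and p-values are the authors' own DESeq2 comparisons, per the file headers. Bowtie 1.2.2 and DESeq2 stand in the submitters' processing notes, without their roles. The counting tool, its strand setting, annotation and build are not given in the sources used here.

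Counts were filtered with filterByExpr, scaled with TMM and tested with edgeR 4.0.16 (glmQLFit and glmQLFTest, two-sided) in R 4.3.3, and p-values were adjusted by Benjamini-Hochberg over all genes tested. "Called" means an adjusted p under 0.05. RNA was fitted over 9 IN libraries, footprints over 9 RPF libraries, and efficiency as an interaction over all 18. CPM is edgeR's cpm on the TMM-scaled library. The SE is the absolute log2 change over the square root of F. Replicate pairs differed by more than sampling noise (chi-square per degree of freedom 2.98 to 47.8), so all were kept. A count of 3 or less is the floor, and it covers counting error only, since no molecular identifiers are described. Alternatives were DESeq2 1.42.0, its size factors, no filter, only the groups compared, thinned RPF libraries, blocks, and each replicate left out. The scripts were checked on simulated counts. Genes named were the members, FBL, list genes called in the same direction in both hairpins, and the 3 genes most like FTH1, FTL and TFRC. NCOA4, FBXL5 and CUL1 fall outside this rule and were named after their values were seen. Some list genes that the rule names are not reported here, though the list counts include them. The members and lists were chosen with earlier results of these data known.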

Additional observations from a re-analysis of the deposited data

Results flagged for a closer look

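For 5 members the hairpins differed in RNA by a direct edgeR test of SH2 minus SH3, each value a log2 difference with its SE. Of all genes tested, 39.3% were called in this comparison. FTH1 was lower in SH2 than in SH3 (-0.60 ± 0.0916, edgeR adjusted p = 2.09e-04), as were FTL (-0.48 ± 0.142, edgeR adjusted p = 0.0164) and ACO1 (-0.29 ± 0.0872, edgeR adjusted p = 0.0176). TFRC (0.27 ± 0.0990, edgeR adjusted p = 0.0449) and SLC11A2 (0.37 ± 0.107, edgeR adjusted p = 0.0141) were higher in SH2.

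In footprints the same test found FTH1 lower in SH2 (-1.0 ± 0.189, edgeR adjusted p = 0.00135) and TFRC (0.68 ± 0.174, edgeR adjusted p = 0.0102) and SLC11A2 (0.84 ± 0.181, edgeR adjusted p = 0.00336) higher. It called 23.8% of all genes tested in footprints. FTH1 in both measures and SLC11A2 in footprints passed in every alternative run, and the others were lost in at least 1.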

How the results depend on the processing

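Of 898 comparisons of a member's value with an alternative, 801 kept direction and side of the threshold, 46 lost the call, 32 gained it and 19 changed sign, in each case with both values short of the threshold. Members called for efficiency against SC numbered 2 (SH2) and 1 (SH3) with DESeq2, 1 and 1 with no filter, and 0 to 1 in each when a replicate was left out. In SH3 footprints 1 member was called when only the groups compared were fitted, and 1 to 4 without a replicate. The shares of all genes called in that footprint fit of only the groups compared, and in the efficiency fits against SC with no filter, are not given here. All genes called in SH3 footprints ran from 2645 to 3771 without a replicate (3719 as reported). RNA members differing between hairpins ranged from 2 to 5 without a replicate, and all genes from 3726 to 5424 (4993 as reported). All genes called for efficiency in SH2 against SC were 930 with DESeq2, 184 with only the groups compared, 277 with thinned RPF libraries and 110 to 555 without a replicate (489 as reported). In SH3 they were 383, 46 with only the groups compared, and 10 to 244 (86 as reported). Between the hairpins they were 254, 35 with no filter, 36 with only the groups compared, and 0 to 51 (2 as reported). Genes called in footprints between hairpins ranged from 1541 to 2928. The cause was not tested.

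The replicate block is a fit with the number as a term. Deviations of same-numbered libraries correlated at over 0.1 in 7 of 9 IN pairs (r from -0.15 to 0.49), in 5 of 9 RPF pairs (-0.12 to 0.31) and in 5 of 9 pairs of IN with RPF (-0.49 to 0.50). With libraries of the same kind, 8 of 9 IN and 7 of 9 RPF libraries correlated best with their own number, a hint from the data and not from the design. Since not every pair was over 0.1 and the labels give the numbers no meaning, the samples were not treated as paired. With the replicate block, 5 members were called in SH3 footprints. FTH1 and FTL were higher, at 0.44 and 0.40 (edgeR adjusted p = 0.0234 and 0.0366), beside the 3 lower. The share of all genes called in that fit is not given here, and was 35.9% without the block. For efficiency the block called 1 member in SH3 (FTH1, edgeR adjusted p = 0.0289), and 4 genes between hairpins. Taking IN and RPF of the same treatment and number as the block gave 191, 23 and 0 genes for efficiency in SH2, SH3 and between hairpins.

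Signs that changed were those of small differences. SLC11A2 efficiency in SH3 was 0.10 with thinned RPF libraries. Leaving out a replicate gave ranges in RNA of -0.054 to 0.25 for SLC40A1 in SH3 and -0.059 to 0.039 for SLC11A2 in SH2. In footprints they were -0.26 to 0.047 for FTL in SH2 and -0.0056 to 0.11 for IREB2 in SH3. In efficiency against SC in SH2 they were -0.22 to 0.13 for TFRC and -0.047 to 0.0032 for ACO1, and between hairpins -0.18 to 0.12 for FTL and -0.39 to 0.34 for SLC40A1.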
